A study of Mus musculus with 20 samples.

Results

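The copine genes examined were Cpne1, Cpne2, Cpne3, Cpne5, Cpne7 and Cpne8, taken as the rows of the distal colon (DC) count table whose Ensembl identifiers carry these symbols in the GENCODE annotation. They were 6 of the 8 copine genes found among the 26619 genes of the table, the other two being Cpne4 and Cpne6, and all 6 passed the filter on low counts that left 17893 genes for testing. The family was chosen by the measured CPM of Cpne2, which was higher at higher starch doses, so its differences between diets are given below as a description with no test. The 5 relatives were taken by name, and their differences between diets were tested in a fit across all 17893 genes. Cpne9 was not analysed here.

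Copines are soluble proteins with a tandem pair of C2 domains at the amino-terminal end, which bind membrane phospholipids when calcium rises, and a von Willebrand factor A-like domain at the carboxyl-terminal end, which binds other proteins. Through this layout they are thought to carry partner proteins to membranes after a calcium signal. Cpne1 has been linked to control of the NF-kB subunit p65, Cpne3 binds the receptor ErbB2 and takes part in cell migration, and Cpne6 is known from neurons of the brain. The roles of Cpne2 in the colon are little described.

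Messenger RNA was measured by sequencing in DC tissue from 20 C57BL/6 mice, with 1 library per mouse and 5 mice on each of 4 diets. All mice, controls included, ate the Total Western Diet (TWD), a rodent diet that imitates human intake in the United States, for 6 weeks from 3 weeks of age. For 3 more weeks they then ate the TWD with 0, 2, 5 or 10% resistant potato starch (RPS, called raw potato starch in the labels), a starch that escapes digestion in the small intestine and is fermented by gut bacteria. The comparisons ask whether a copine differed between mice fed 2, 5 or 10% RPS and the mice fed 0% RPS, and whether its level followed the RPS percentage. Values are in CPM, the counts of a gene scaled to a library of fixed size, and were adjusted between libraries by TMM scaling. The tissue is a mixture of cell types, so fewer cells of a type and less RNA per cell cannot be told apart.

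Total counts ran from 18429493 to 34974230 per mouse, and each mouse fed 0% RPS (at least 31254832) had more than any mouse fed 2% (at most 31126954), 5% (at most 30365108) or 10% RPS (at most 26595092), so depth and diet cannot be told apart in any of the comparisons with 0% RPS or in the trend. A count of 3 corresponded to between 0.0850 and 0.163 CPM. For 3 mice the labels conflict. By description and treatment label respectively, mouse RS10_717 had 5% or 2% RPS, mouse RS10_725 had 10% or 5%, and mouse RS10_748 had 2% or 10%. The description label was used. Some results, such as the Cpne2 means, are also given without these 3 mice, but not all. Markers of colon epithelium and of smooth muscle were abundant in all 20 mice, with summed levels of 11015 to 17520 and 5806 to 12721 CPM. The 7 pancreas acinar markers summed to 5804 CPM in mouse RS10_721 (5% RPS) and to at most 841 CPM in the others, while 7 stratified squamous markers summed to between 4.84 and 12.7 CPM in all mice.

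The coding sequences of the 6 genes are related but no longer close, which matters here because the reads that were counted are short. The stretch of 48 bases in Cpne2 with the most bases in common with its relatives is shown as an example. It was not chosen as the place where any pair of copines is most alike. Sequences are 5′ to 3′ from GENCODE vM39 transcripts of GRCm39, and capitals mark bases that differ from Cpne2.
Cpne2: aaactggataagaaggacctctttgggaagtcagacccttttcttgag
Cpne8: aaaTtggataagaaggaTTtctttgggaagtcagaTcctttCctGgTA
Cpne3: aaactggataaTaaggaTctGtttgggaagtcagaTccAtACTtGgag
Cpne7: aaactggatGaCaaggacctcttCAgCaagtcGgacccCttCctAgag
Cpne1: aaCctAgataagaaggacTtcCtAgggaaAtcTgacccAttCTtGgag
Cpne5: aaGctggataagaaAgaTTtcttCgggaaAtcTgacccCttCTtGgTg

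The number of differing bases in this stretch was 8 in Cpne8, 9 in Cpne3, 9 in Cpne7, 11 in Cpne1 and 12 in Cpne5. On GRCm39 the stretch lies in coding exons, for Cpne2 at chr8:95280075-95281335 on the plus strand, Cpne8 at chr15:90456174-90456221 on the minus strand, Cpne3 at chr4:19543305-19550602 on the minus strand, Cpne7 at chr8:123851201-123852333 on the plus strand, Cpne1 at chr2:155920542-155920686 on the minus strand and Cpne5 at chr17:29407293-29407340 on the minus strand. The Cpne5 and Cpne8 stretches sit in 1 exon each, and the other 4 run across an exon junction.

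Over whole coding sequences, nucleotide identity to Cpne2 was 66.7% for Cpne1, 65.4% for Cpne5, 65.2% for Cpne3, 63.4% for Cpne7 and 62.7% for Cpne8. The pair most alike was Cpne5 and Cpne8, at 73.0%. No run of identical bases between any 2 of the coding sequences was longer than 20 bases, and of all possible 50-base reads from their transcripts 0 were shared between copines. Cpne2 shared 0 of its 50-base reads with any other gene of the annotation. These comparisons used the sense strand of transcripts only. On the opposite strand 175 exon bases of Cpne2 (4.49%) overlap the long noncoding RNA gene Gm38555, which is not in the count table. Cpne1 shared the most in the family, since 74.3% of its 50-base reads also occur in another gene, 72.4% in the readthrough gene Gm28036 and 8.35% in Rbm12, so its counts depend on how such reads were assigned. The shares were 3.17% for Cpne8, 2.31% for Cpne5, 1.15% for Cpne3 and 0.247% for Cpne7.

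Cpne2 and Cpne3 had the highest measured levels of the 8 copines in the DC. Per kilobase of merged exons, the median over 20 mice was 7.54 CPM for Cpne2 and 7.23 CPM for Cpne3, against 1.11 for Cpne8, 0.459 for Cpne4, 0.150 for Cpne6, 0.132 for Cpne1, 0.0807 for Cpne7 and 0.0594 for Cpne5. The levels per kilobase of Cpne3, Cpne8 and Cpne4 did not overlap and kept this order in 20 of 20 mice. The first 2 places were not separated, as Cpne2 was the higher of the pair in 12 of 20 mice and their ranges overlapped. Dividing by the longest transcript instead put Cpne3 (13.0 CPM per kilobase) above Cpne2 (10.9 CPM per kilobase), with Cpne2 higher in only 6 of 20 mice. The lowest 4 also overlapped with their neighbours: Cpne6 was above Cpne1 in 12 mice, Cpne1 above Cpne7 in 18 and Cpne7 above Cpne5 in 13. The low place of Cpne1 is uncertain, because 74.3% of its 50-base reads also occur in another gene, mostly Gm28036. Gm28036 itself had 0 to 4 counts per mouse, and where the shared reads went is not known.

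**Figure D1:**
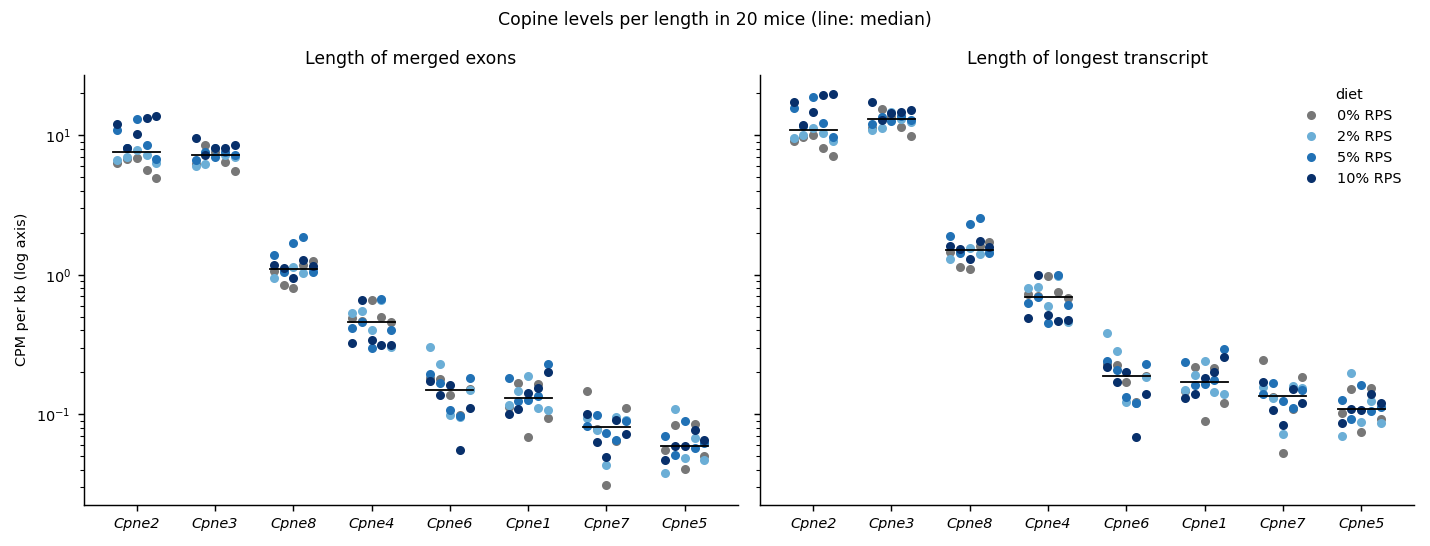
Level of 8 copine genes in each of 20 mice, in CPM per kilobase on a log axis, with length taken as merged exons (left) or the longest transcript (right). Points are mice coloured by diet and lines are medians. Cpne2 and Cpne3 overlap at the top, and their order depends on the length used.

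Cpne2 (ENSMUSG00000034361, chr8:95259332-95297161, plus strand) was higher with each step in RPS. In mice fed 0% RPS its level was 24.6, 26.5, 27.1, 22.1 and 19.2 CPM. In mice fed 2% RPS it was 26.0, 27.2, 30.8, 28.0 and 24.7 CPM, with 3 of 5 above the highest control. The lower values at 2% RPS fell among the controls, so these diets overlapped. In mice fed 5% RPS it was 42.3, 31.5, 50.7, 33.1 and 26.5 CPM, and in mice fed 10% RPS it was 46.9, 31.9, 39.7, 52.4 and 53.5 CPM. All mice fed 10% RPS were above all controls, and 1 of the mice fed 5% RPS (RS10_724) was within the control range. Not overlapping in this direction was seen for 1.13% of all genes tested, a share from which nothing is read for Cpne2 because this contrast chose it.

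The means of Cpne2 were 23.9 ± 3.26, 27.3 ± 2.32, 36.8 ± 9.65 and 44.9 ± 9.08 CPM (SD, n = 5) at 0, 2, 5 and 10% RPS. The log2 fold changes against 0% RPS were 0.19 ± 0.16, 0.62 ± 0.16 and 0.91 ± 0.16 (SE), and the slope was 0.09 per percentage point of RPS. The spread between mice on one diet was also wider at the higher doses, with coefficients of variation of 13.6, 8.48, 26.2 and 20.2%. Without the 3 mice of conflicting labels the means were 23.9, 28.0, 35.5 and 44.4 CPM, and 4 of 4 mice fed 10% RPS stayed above the controls. By the treatment label they were 23.9, 30.9, 37.7 and 40.4 CPM, with 4 of 5 mice of the 10% group above the highest control.

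**Figure D2:**
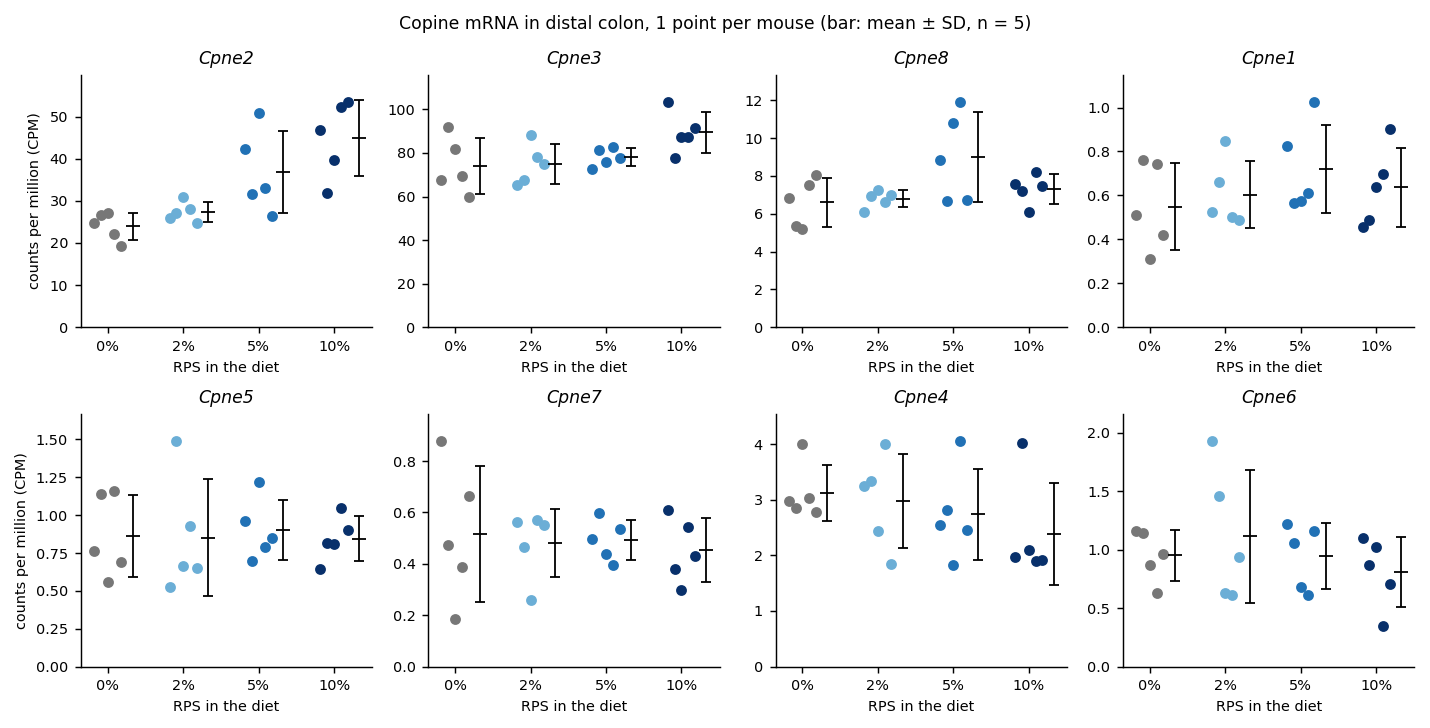
Level of 8 copine genes in CPM (vertical axes, each from 0) against the RPS percentage of the diet. Points are mice and bars are the mean ± SD of 5 mice per diet. The 5 mice fed 10% RPS lie above all controls for Cpne2, while every other copine overlaps between 0 and 10% RPS.

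None of the 5 relatives passed the test in any comparison, which required an adjusted p of at most 0.05 and, between diets, a fold change of at least 1.5. The edgeR count was 0 of 5 at 2, 5 and 10% RPS and in the trend. DESeq2 also gave 0 in each, with an adjusted p for only 4 of the 5 in the trend. Over all genes edgeR called 0% at 2% RPS, 0% at 5% RPS, 0.0391% at 10% RPS and 2.10% in the trend. DESeq2 called 1 of 25901 genes at 2% RPS, 31 of 19863 at 5% RPS, 210 of 17373 at 10% RPS and 985 of 16365 in the trend. At an unadjusted p below 0.05, 1 of the 5 was higher at 10% RPS (Cpne3), 1 at 5% RPS (Cpne8) and 1 in the trend (Cpne3), with 0 at 2% RPS and 0 lower in any comparison. The background shares of genes higher at that threshold were 7.32% at 10% RPS, 4.69% at 5% RPS and 9.00% in the trend. The median log2 fold change of the 5 at 10% RPS was 0.15, with 3 of the 5 positive, and that of all genes tested was -0.01. Cpne4 and Cpne6, which are not among the 5, had negative log2 fold changes at 10% RPS, -0.40 and -0.24.

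Cpne3 (ENSMUSG00000028228, chr4:19519249-19570122, minus strand), the ErbB2-binding copine, had the most counts of the family. Its level was 67.5, 92.1, 81.7, 69.3 and 59.6 CPM at 0% RPS, and 65.5, 67.8, 88.1, 78.3 and 75.1 CPM at 2% RPS. At 5% RPS it was 72.4, 81.5, 75.9, 82.6 and 77.6 CPM, and at 10% RPS 104, 77.7, 87.3, 87.5 and 91.3 CPM. The diets overlapped throughout, with 1 mouse fed 10% RPS (RS10_725) above the highest control, RS10_703.

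The Cpne3 means were 74.0 ± 12.8, 75.0 ± 9.02, 78.0 ± 4.17 and 89.5 ± 9.35 CPM (SD, n = 5). At 10% RPS the edgeR log2 fold change was 0.27 ± 0.10 (SE, 95% interval 0.07 to 0.48), a fold of 1.21, with an adjusted p of 0.209. The edgeR trend was 0.03 ± 0.01 per percentage point with an adjusted p of 0.0978. Without mouse RS10_703 the trend passed, at an adjusted p of 0.0267, and it also passed without mouse RS10_727 (10% RPS). Its slope was 0.04 and 0.03 per percentage point in these cases, so leaving out either of 2 mice moved the Cpne3 trend across the threshold. Calls over all genes rose as well, from 375 of 17893 in the trend. They were 758 of 18001 without RS10_703 and 1148 of 18096 without RS10_727. Without the 3 mice of conflicting labels, RS10_725 among them, the log2 fold change at 10% RPS was 0.23.

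Cpne8 (ENSMUSG00000052560, chr15:90371668-90564186, minus strand) had its highest values at 5% RPS and not at 10%. Its level was 6.86, 5.38, 5.19, 7.53 and 8.05 CPM at 0% RPS, and 6.11, 6.96, 7.27, 6.62 and 7.00 CPM at 2% RPS. At 5% RPS it was 8.86, 6.69, 10.8, 11.9 and 6.74 CPM, and at 10% RPS 7.57, 7.18, 6.10, 8.23 and 7.45 CPM. Of the 5% mice, 3 stood above the controls, and the other 2 and 4 of 5 mice fed 10% RPS lay within the control range. The mouse with the highest value, RS10_721, is the one with high pancreas acinar markers, and the part of those cells in the Cpne8 value was not tested. The means were 6.60 ± 1.28, 6.79 ± 0.444, 9.01 ± 2.36 and 7.31 ± 0.776 CPM (SD, n = 5). The edgeR log2 fold change was 0.45 ± 0.16 at 5% RPS (adjusted p = 0.373) and 0.15 ± 0.16 at 10% RPS (adjusted p = 0.711). Without RS10_721 the value at 5% RPS was 0.32, and without the 3 mice of conflicting labels it was 0.46. At 10% RPS it ran from 0.0750 to 0.23 with each mouse left out in turn.

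Cpne1, Cpne5 and Cpne7 were near the floor of detection, with 9 to 25, 13 to 45 and 6 to 31 counts per mouse. The counts of Cpne1 depend on how reads shared with Gm28036 were assigned. Cpne1 (ENSMUSG00000074643, chr2:155913762-155953885, minus strand) ranged from 0.311 to 0.759 CPM at 0% RPS and from 0.456 to 0.902 CPM at 10% RPS, with means of 0.549 ± 0.198 and 0.637 ± 0.179 CPM (SD, n = 5). Cpne5 (ENSMUSG00000024008, chr17:29374530-29457226, minus strand) ranged from 0.559 to 1.16 CPM at 0% RPS and from 0.646 to 1.05 CPM at 10% RPS, with means of 0.863 ± 0.272 and 0.845 ± 0.147 CPM. Cpne7 (ENSMUSG00000034796, chr8:123843492-123861927, plus strand) ranged from 0.186 to 0.879 CPM at 0% RPS and from 0.299 to 0.608 CPM at 10% RPS, with means of 0.518 ± 0.265 and 0.453 ± 0.124 CPM. In each of these 3 genes the ranges of the 2 diets overlapped, and for Cpne5 and Cpne7 the range at 10% RPS lay within that at 0% RPS. The edgeR log2 fold changes at 10% RPS were 0.22 ± 0.28 for Cpne1 (adjusted p = 0.765), -0.03 ± 0.28 for Cpne5 (adjusted p = 0.976) and -0.19 ± 0.33 for Cpne7 (adjusted p = 0.836). With each mouse left out in turn, the value of Cpne1 ran from 0.0629 to 0.37. The 95% intervals of the 3 genes, in that order, ran from -0.33 to 0.78, from -0.57 to 0.51 and from -0.83 to 0.46. A rise of 1.5-fold in Cpne1 and a fall of that size in Cpne7 lie inside them. The intervals are somewhat narrow, and the lower limit of Cpne5 is too near such a fall to exclude it.

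**Figure D3:**
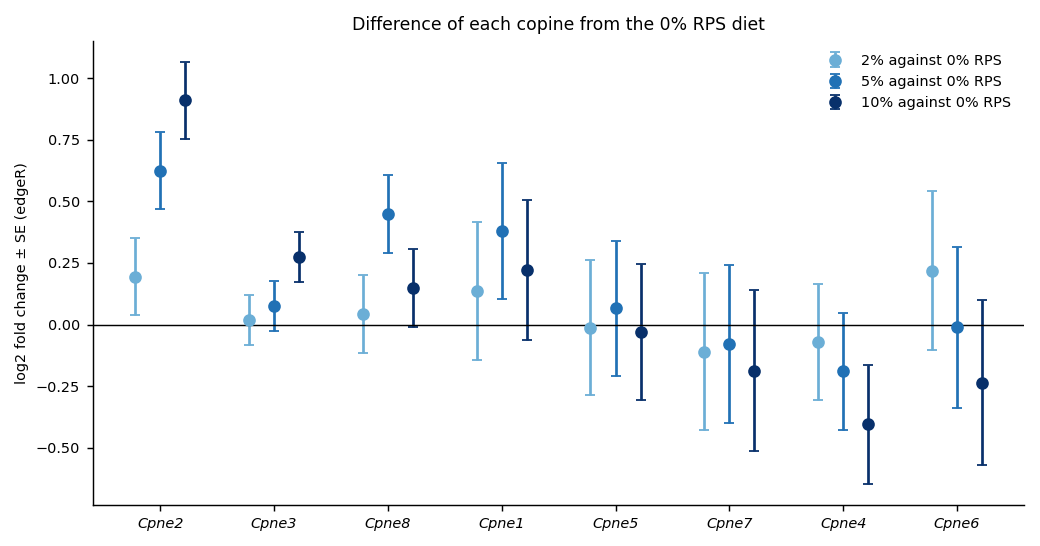
Fitted log2 fold change (edgeR, vertical axis) of 8 copine genes at 2, 5 and 10% RPS against 0% RPS, with bars of ± SE. Cpne2, shown as a description, stands at 0.19, 0.62 and 0.91, and the bars of the low-count genes Cpne1, Cpne5, Cpne7 and Cpne6 are the widest.

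The spread between mice was set against the spread that counting alone gives. For Cpne1 the spread within diets was 29.3% of the mean, and counting error alone gives 23.8%. For Cpne5 and Cpne7 the spread was 30.9 and 34.0%, against 20.1 and 26.8% from counting. For the abundant members it was far above counting error, at 20.8% against 3.29% for Cpne2, 11.8% against 2.12% for Cpne3 and 19.1% against 6.89% for Cpne8. The remaining spread in these 3 genes is between mice or libraries.

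The make-up of the family followed the values of Cpne2. Of all copine counts, Cpne2 held 21.6 ± 1.28% at 0% RPS, 23.8 ± 1.13% at 2%, 28.2 ± 5.66% at 5% and 30.4 ± 3.69% at 10% (SD, n = 5). Cpne3 held 66.7 ± 2.72% at 0% RPS and 61.1 ± 3.08% at 10% RPS. Together Cpne2 and Cpne3 held 89.3 ± 2.07% of the counts in the 20 mice. Count shares do not allow for gene length, or for reads of Cpne1 that may have been assigned elsewhere. Per kilobase of merged exons, Cpne2 held 40.9 ± 1.84% and Cpne3 45.7 ± 2.7% at 0% RPS. At 10% RPS Cpne2 held 52.5 ± 4.45% and Cpne3 38.4 ± 3.29% on that scale. These shares contain the Cpne2 values that chose the family and are given as a description.

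Cpne4 and Cpne6, both known from nervous tissue, did not pass the test either. Cpne4 was below the lowest control in 2, 3 and 4 of 5 mice at 2, 5 and 10% RPS, with means of 3.13 ± 0.502, 2.98 ± 0.843, 2.74 ± 0.822 and 2.38 ± 0.921 CPM (SD, n = 5) from 0 to 10%. Its edgeR log2 fold change at 10% RPS was -0.40 ± 0.24 (adjusted p = 0.434). Cpne6 averaged 0.952 ± 0.220 CPM at 0% RPS and 0.811 ± 0.299 CPM at 10% RPS (edgeR log2 fold change -0.24, adjusted p = 0.793). The 8 markers of enteric neurons and glia summed to 96.6 to 123 CPM at 0% RPS and to 78.8 to 143 CPM at 10% RPS, none was at 0, and their part in the Cpne4 values was not tested.

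Whether copines varied together was examined between mice on the same diet, after each diet's mean was subtracted, which leaves out the diet contrast that chose Cpne2. Of the 15 pairs of members, 0 passed a permutation test after Benjamini-Hochberg adjustment by Pearson's r, and 0 by Spearman's rho, with 1 pair at an unadjusted p below 0.05 by each. That pair by Pearson's r was Cpne1 and Cpne5 (r = 0.49, permutation p = 0.0423, adjusted p = 0.443, n = 20 mice). Cpne2 and Cpne3 had r = 0.39 (permutation p = 0.0591, adjusted p = 0.443) and rho = 0.32.

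The 6 members were also set beside scores (mean log2 CPM of the markers) of epithelium, surface colonocytes, smooth muscle, enteric neurons and glia, and B cells. Of the 30 relations 1 passed, that of Cpne2 with the B cell score (6 markers, among them Ms4a1, Cd79a and Cd79b). Within diets r was 0.54 (permutation p = 0.00079, adjusted p = 0.0237, n = 20 mice), and 0.53 without the 2 mice farthest from the median score. Spearman's rho was 0.59, and its adjusted permutation p of 0.0738 missed the threshold. Cpne5 had nearly the same r with this score (r = 0.54, permutation p = 0.0279, adjusted p = 0.419), a rho of 0.68 (adjusted permutation p = 0.0779) and r = 0.69 without the 2 farthest mice. Whether the relations of Cpne2 and Cpne5 differ was not tested. Mouse RS10_708 (0% RPS) had a B cell score of 0.520 against 2.69 to 4.07 in all others, and it also had the lowest Cpne2 of all mice.

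Without RS10_708 the relation had r = 0.53 and an adjusted permutation p of 0.132. The same call was lost without RS10_703 (adjusted p = 0.0684), RS10_719 (adjusted p = 0.0531), RS10_724 (adjusted p = 0.0726) or RS10_727 (adjusted p = 0.0648), each by permutation, and without the 3 mice of conflicting labels (r = 0.52, adjusted p = 0.129). The summed B cell markers did not separate the diets, at 9.61 to 98.1 CPM with 0% RPS and 61.0 to 112 CPM with 10% RPS.

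Surface colonocyte markers, taken as a sum, were higher at the higher doses. The 8 markers, among them the anion exchanger Slc26a3 and the carbonic anhydrase Car4, summed to 3517 to 4490 CPM at 0% RPS, 3573 to 4402 CPM at 2%, 3939 to 6129 CPM at 5% and 5524 to 6395 CPM at 10%, and none was at 0. The means were 3988 ± 393 CPM in controls and 6102 ± 352 CPM in mice fed 10% RPS (SD, n = 5). All mice fed 10% RPS were above all controls in this sum, as in Cpne2 and in 1.13% of all genes tested. Individual markers were not compared. In the surface colonocyte score the lowest mouse fed 10% RPS (RS10_727) had 8.04 and the highest control (RS10_704) 8.01. Between mice on the same diet the relation of Cpne2 with this score did not pass (r = 0.35, adjusted permutation p = 0.643, n = 20). The part of surface colonocytes in the Cpne2 values was not tested.

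**Figure D4:**
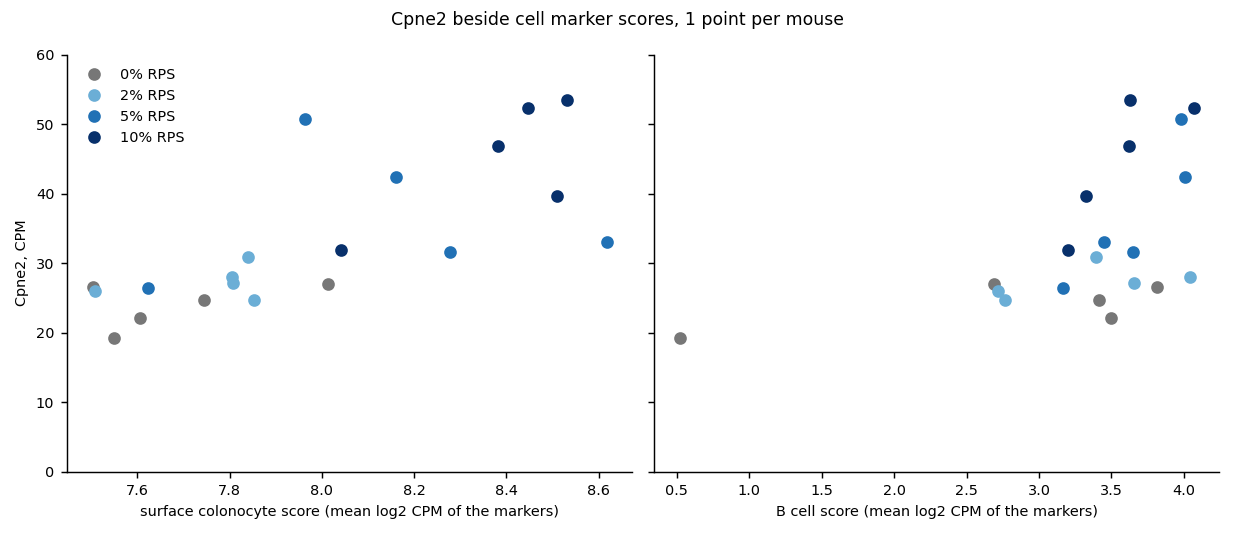
Cpne2 level (CPM, vertical axis) against the surface colonocyte score (left) and the B cell score (right), each the mean log2 CPM of the markers, 1 point per mouse coloured by diet. On the left all 5 mice fed 10% RPS lie to the right of all controls, and on the right mouse RS10_708 stands alone at a B cell score of 0.520.

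The genes whose pattern between mice was most like Cpne2, over 10272 other genes that averaged 10 CPM or more, were ranked by Pearson's r of log2 CPM within diets over 20 mice. The first 10 were Zbp1 (r = 0.83), Parp12 (0.83), B3galt5 (0.83), Tmprss4 (0.83), Apobec3 (0.83), Cd38 (0.82), Ly6a (0.80), Lyn (0.78), Traf7 (0.78) and Stom (0.78). They share libraries and tissue make-up, and being the first of a ranking carry no p. Zbp1, a sensor of Z-form nucleic acids, averaged 7.64 ± 2.58 CPM in controls and 25.8 ± 10.6 CPM in mice fed 10% RPS (SD, n = 5). Cd38, an ectoenzyme that consumes NAD, averaged 155 ± 26.6 and 285 ± 77.7 CPM at these doses. All 10 had a higher mean at 10% than at 0% RPS, where the median log2 fold change of all genes was -0.01. Of the 10, 0 passed the edgeR test at 10% RPS, where the lowest adjusted p was 0.0659 (Parp12). Over all genes 0.0391% passed it, so nothing is read from the 0. The paper, which used DESeq2, lists Zbp1 among the genes upregulated in the DC at 10% RPS.

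The closest patterns to Cpne3 were those of Tab2 (r = 0.90), Brwd3 (0.89) and Eea1 (0.88), an early endosome tethering protein, all over 20 mice within diets. For Cpne8 they were Kremen2 (0.73), Pdcd7 (0.69) and Ube2q1 (0.68). For the low-count members they were Sgms2 (0.76) and Swap70 (0.71) with Cpne1, Ptpn6 (0.74), Arhgdib (0.74) and Lcp1 (0.72) with Cpne5, and Slc12a9 (0.82), Nr1h2 (0.80) and Zfp579 (0.71) with Cpne7. None of these genes passed the edgeR test at 10% RPS, which 0.0391% of all genes passed.

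On the chromosome, Cpne2 lies between Nlrc5 and Psme3ip1. Nlrc5, an activator of MHC class I genes, lies 5431 bases upstream on the same strand. Its level was 3.85, 7.25, 3.39, 4.76 and 3.77 CPM at 0% RPS and 11.2, 4.79, 5.46, 7.26 and 5.65 CPM at 10% RPS, which overlap. The edgeR log2 fold change was 0.58 ± 0.28 with an adjusted p of 0.321. Psme3ip1, 2861 bases downstream on the opposite strand, had 56.5 ± 2.34 CPM in controls and 57.3 ± 3.52 CPM in mice fed 10% RPS (SD, n = 5). Its log2 fold change was 0.02 ± 0.06 (edgeR adjusted p = 0.907).

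**Figure D5:**
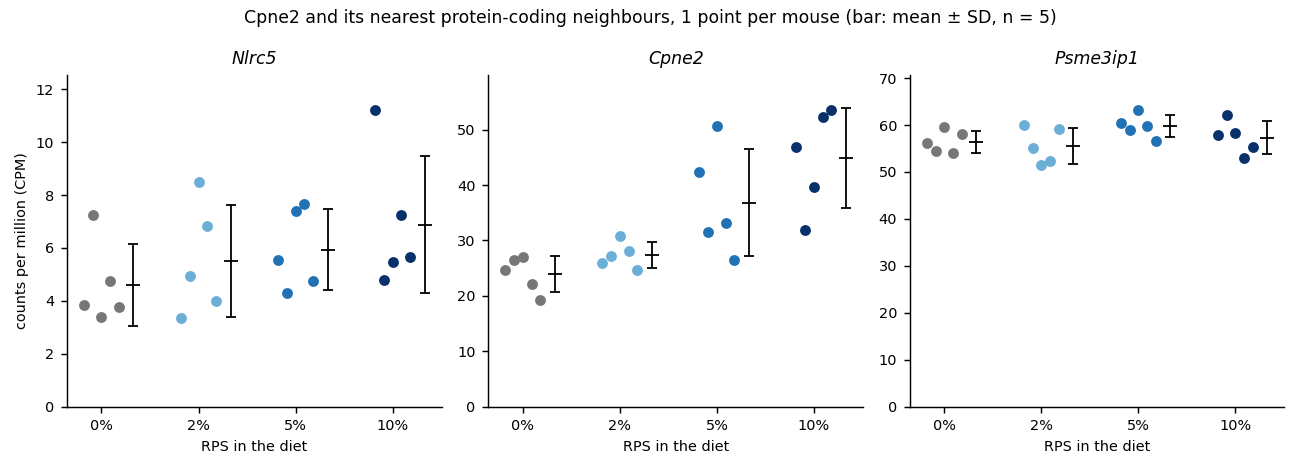
Level in CPM (vertical axes, each from 0) of Nlrc5, Cpne2 and Psme3ip1 against the RPS percentage of the diet, with points for mice and bars for the mean ± SD of 5 mice. Psme3ip1 has means of 56.5 and 57.3 CPM at 0 and 10% RPS, and the diets of Nlrc5 overlap.

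Of the 12 nearest protein-coding neighbours of the 6 members 11 could be tested, and 0 passed in any comparison by edgeR or DESeq2, with 2 at an unadjusted p below 0.05 at 10% RPS and 2 in the trend. Both times these were Nlrc5 and Alg10, an enzyme of protein glycosylation 253993 bases from Cpne8 (40.1 CPM at 0% and 45.5 CPM at 10% RPS, edgeR log2 fold change 0.18 ± 0.07, adjusted p = 0.246). Over all genes 15.2% had an unadjusted p below 0.05 at 10% RPS and 19.1% in the trend, in either direction. At 10% RPS edgeR called 7 of 17893 genes and DESeq2 210 of 17373. In the trend they called 375 of 17893 and 985 of 16365. Cpne1 overlaps its neighbours Rbm12 (log2 fold change 0.15, edgeR adjusted p = 0.692) and Spag4 (0.43, adjusted p = 0.606). Rab44 and Ppil1 beside Cpne5 had log2 fold changes of 0.07 and 0.20 (edgeR adjusted p = 0.929 and 0.444), Rpl13 and Sult5a1 beside Cpne7 had -0.20 and -0.03 (adjusted p = 0.473 and 0.974), Kif21a beside Cpne8 had 0.14 (adjusted p = 0.641) and Rmdn1 beside Cpne3 had -0.09 (adjusted p = 0.723).

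Other genes for calcium-dependent membrane-binding proteins were read from fixed lists. Of 44 tandem C2 genes 41 were tested, and 2 passed in the trend, both lower with more RPS, against 2.10% of all genes. Rasa4, a calcium-regulated brake on Ras, averaged 76.3 ± 6.68 CPM in controls and 60.2 ± 4.83 CPM in mice fed 10% RPS (SD, n = 5), with a slope of -0.04 ± 0.01 per percentage point (edgeR adjusted p = 0.0233). Syt2, a calcium sensor of vesicle release, averaged 6.32 ± 1.80 CPM at 0% and 3.77 ± 1.20 CPM at 10% RPS, with a slope of -0.08 ± 0.02 (edgeR adjusted p = 0.0450). By the treatment label neither passed, with edgeR adjusted p of 0.168 for Rasa4 and 0.375 for Syt2, and without the 3 mice of conflicting labels these were 0.0583 and 0.129. Calls over all genes in the trend also fell, from 375 to 0 of 17893 by the treatment label. Without the 3 mice they were 56 of 17928. Neither the Rasa4 nor the Syt2 call held without mouse RS10_731 (adjusted p = 0.0607 and 0.113) or RS10_784 (adjusted p = 0.0815 and 0.129), both fed 10% RPS, with slopes of -0.0337 and -0.0672 without the former and -0.0335 and -0.0740 without the latter. Over all genes 139 of 18075 passed in the trend without RS10_731 and 24 of 18084 without RS10_784. The Syt2 call was lost as well without any one of RS10_701, RS10_707, RS10_708, RS10_709, RS10_712, RS10_716, RS10_748, RS10_717, RS10_725 or RS10_729, at edgeR adjusted p between 0.0561 and 0.0932. In those fits 109 to 309 genes passed in the trend.

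At an unadjusted p below 0.05, 4 tandem C2 genes were higher and 6 lower in the trend, of 41 tested, against 9.00% and 10.1% of all genes. The list's median log2 fold change at 10% RPS was -0.06, against -0.01 over all genes. Its most abundant members, the membrane tethers Esyt2 and Esyt1 and the exocytosis protein Sytl1, averaged 174, 96.4 and 104 CPM and did not pass. Of 11 annexins tested 0 passed in edgeR, where 1 was higher and 2 lower at an unadjusted p below 0.05 in the trend, against 19.1% of all genes in either direction. DESeq2 called 1 of them in the trend, Anxa4, which averaged 247 CPM at 0% and 299 CPM at 10% RPS (edgeR trend adjusted p = 0.0506). Over all genes 2.10% were called in the edgeR trend and 985 of 16365 in the DESeq2 trend. The most abundant annexins were Anxa2, Anxa11 and Anxa3, at 889, 400.1 and 303 CPM.

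The 4 genes listed as partners of copines were the receptor Erbb2 (250.2 CPM on average over 20 mice), the kinase Map2k1 (230 CPM), the phosphatase Ppp5c (143 CPM) and the NF-kB subunit Rela (71.4 CPM). Of these 0 passed in edgeR or DESeq2, with 0 at an unadjusted edgeR p below 0.05 in any comparison. Over all genes 15.2% were below that p at 10% RPS and 19.1% in the trend. Calls over all genes were 0.0391% at 10% RPS and 2.10% in the trend by edgeR. By DESeq2 they were 210 of 17373 and 985 of 16365. Erbb2, the partner of Cpne3, averaged 263 ± 28.4 CPM in controls and 239 ± 41.6 CPM in mice fed 10% RPS (SD, n = 5, edgeR adjusted p = 0.748).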

How the data were processed

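Polyadenylated RNA from DC of 20 mice was sequenced as stranded libraries with short single-end reads. The authors trimmed low-quality bases, mapped the reads to GRCm39 in CLC Genomics Workbench and deposited raw counts per gene, with no mice pooled. Which annotation release was used, whether counting used strand and where reads with several matching genes went is not given in the sources used here, so counts of overlapping genes such as Cpne1 are uncertain.

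Groups came from the description label, and mice are named by their codes. Symbols, positions and transcripts came from GENCODE vM39, which held 26338 of the 26619 identifiers. Members and gene lists were chosen with earlier results of these data known.

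Genes were filtered with filterByExpr (minimum count 10, 17893 of 26004 genes with a count kept), scaled by TMM and tested with edgeR 4.0.16 in R 4.3.3 by the quasi-likelihood F-test over 4 diets, or on the RPS percentage. Adjusted p-values are Benjamini-Hochberg over all 17893 genes. The thresholds were the study's own, an adjusted p no higher than 0.05 and, for differences between diets, a fold change of 1.5 or more. DESeq2 1.42.0 was an alternative. CPM values are TMM-scaled. Depth was 18429493 to 34974230 counts per mouse, and 3 counts were taken as the floor, which covers counting error only.

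Correlations used log2 CPM (prior count 2) after subtraction of diet means, with 100000 permutations of mice within diets. The genes named were the copines, the nearest protein-coding neighbour on each side of a member, the 10 genes most correlated with Cpne2 and the 3 with each relative, and from each list the genes called or, if none, the 3 with the highest mean CPM. A gene that this rule names beside Cpne1 is not reported here. The abundant tandem C2 genes, Anxa4 and Gm28036 are named outside this rule and were added after their values were seen. Alternatives were another tool, scaling, filter, prior count and transcript length, the treatment label, leaving out the 3 mice of conflicting labels, the 2 diets of a comparison alone, and leaving out each mouse.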

Additional observations from a re-analysis of the deposited data

Results flagged for a closer look

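Each diet's 5 mice were checked, gene by gene over the 8 copines, for 1 mouse far from the rest by the gap to its neighbour relative to the range. This singled out 2 of 32 groups, where chance at 1 in 20 would give 1.6. Both were in Cpne4. At 0% RPS mouse RS10_704 had 4.01 CPM, and the other 4 had 2.77 to 3.03 CPM. At 10% RPS mouse RS10_727 had 4.03 CPM, and the other 4 had 1.90 to 2.09 CPM. Without RS10_727, the log2 fold change of Cpne4 at 10% RPS was -0.66 with an edgeR adjusted p of 0.110, and its trend had an adjusted p of 0.0619. This mouse also had the fewest counts (18429493) and the highest sum of enteric neuron and glia markers of its diet (143 CPM), and the part of either in its Cpne4 value was not tested.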

How the results depend on the processing

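The count of relatives called was 0 at 2, 5 and 10% RPS under every alternative, including 0 to 0 when each mouse was left out, and 0 in the trend except in the 2 cases that left out RS10_703 or RS10_727, where Cpne3 passed (0 to 1). Where few genes of the whole table passed, such zeros say little about the relatives. By the treatment label 0 of 17893 genes passed in every comparison. Without the 3 mice of conflicting labels 0 of 17928 passed at 2, 5 or 10% RPS. The edgeR alternatives called at most 1 gene at 5% RPS and 0 at 2% RPS. With each mouse left out in turn, 5 to 188 genes passed at 10% RPS, and 24 to 1148 in the trend. For Cpne7 DESeq2 gave no adjusted p in the trend. Leaving out each mouse gave a log2 fold change of Cpne2 of 0.84 to 1.02 at 10% RPS and 0.48 to 0.71 at 5% RPS. The direction of Cpne5 was not settled. It reversed without the 3 mice of conflicting labels, to 0.0654 at 10% RPS, 0.0758 at 2% RPS and 0.0048 per percentage point, and by the treatment label, to -0.0373 at 5% RPS and 0.0896 at 2% RPS. Leaving out each mouse also turned the sign of some small log2 fold changes, with ranges at 10% RPS of -0.15 to 0.11 for Cpne5 and -0.39 to 0.0926 for Cpne7. At 5% RPS the ranges were -0.0002 to 0.17 for Cpne3, -0.0741 to 0.19 for Cpne5 and -0.29 to 0.19 for Cpne7. At 2% RPS they were -0.0144 to 0.28 for Cpne1, -0.0526 to 0.11 for Cpne3, -0.32 to 0.12 for Cpne5, -0.32 to 0.17 for Cpne7 and -0.0335 to 0.12 for Cpne8. In the trend they were -0.0101 to 0.0079 for Cpne5 and -0.0308 to 0.0043 for Cpne7.

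The 2 calls among other calcium-dependent membrane-binding genes became 4 in DESeq2, 0 by the treatment label, 0 without the 3 mice of conflicting labels and 0 to 5 when each mouse was left out. Trend calls over all genes were 375 of 17893 in the main fit and 985 of 16365 in DESeq2. They were 0 by the treatment label, 56 without the 3 mice and 24 to 1148 with each mouse left out. The 1 relation with a cell marker score became 0 without those 3 mice and 0 to 1 when each mouse was left out, while pairs of members passing stayed at 0 to 0. Cpne2 was above Cpne3 in 12 mice per kilobase of merged exons and in 6 per kilobase of the longest transcript. The cause of these shifts was not tested. Trends could not be computed from 2 diets alone. No paired analysis was possible because each mouse number occurs on 1 diet only. Cpne1, Cpne5 and Cpne7 had 6 to 45 counts per mouse.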
